A study of Mus musculus with 6 samples.

Results

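The 9 genes described here encode core proteins of B cell identity, and were measured in sorted CD4 T cells. They were taken by name, as Cd79a, Cd79b, Ms4a1, Pax5, Ebf1, Blk, Cd22, Fcer2a and Bank1, from the 46983 gene identifiers of the count tables, with earlier results of these data known. RNA depleted of rRNA was sequenced from naïve CD4 T cells of 3 control and 3 Rnmt cKO mice. Control animals carried Rnmt fl/fl alleles and no Cre. Rnmt cKO animals carried the same Rnmt fl/fl alleles and a CD4cre transgene, which is expressed in developing T cells from the double-positive thymocyte stage, so that Cre and loss of Rnmt cannot be told apart. All animals were male, were on a C57B6/J background and carried floxed Rnmt, and their ages were not given in the sources used here. Cells were sorted from lymph nodes as naïve TCRb+ and CD4+ cells, negative for CD44 and DAPI, by a gate that names no B cell protein.

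B cells recognise antigen through the B cell receptor, a membrane immunoglobulin that signals through the paired chains CD79A and CD79B. EBF1 and PAX5 are the transcription factors that specify and then maintain the B lineage, and PAX5 also represses genes of other lineages. The other proteins act at or beneath the membrane of mature B cells. CD20, encoded by Ms4a1, is a surface protein linked to calcium entry, CD22 is a sialic acid-binding receptor that restrains B cell receptor signalling, and CD23, encoded by Fcer2a, is the low-affinity receptor for IgE. BLK is a kinase of the Src family, and BANK1 is a scaffold protein of B cell receptor signalling. Lymph nodes hold many B cells. In bulk RNA, fewer cells of a type and less RNA per cell cannot be told apart.

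Sequences upstream of a RefSeq start site are given for 4 of these genes, Bank1, Cd22, Pax5 and Fcer2a, to show what a motif match in them looks like. Windows of Cd79a and Ebf1 overlap annotated 5′ exons and are not printed. Each runs 5′ to 3′ on the gene's minus strand, covers the 150 bases before a RefSeq start site on build GRCm38.p6, and has in capitals every match to the EBF motif CCCNNGGG or the E-box CAGGTG, on either strand.
Bank1: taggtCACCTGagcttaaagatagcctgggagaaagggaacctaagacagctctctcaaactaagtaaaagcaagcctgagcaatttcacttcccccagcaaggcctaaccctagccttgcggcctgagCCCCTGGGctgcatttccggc
Cd22: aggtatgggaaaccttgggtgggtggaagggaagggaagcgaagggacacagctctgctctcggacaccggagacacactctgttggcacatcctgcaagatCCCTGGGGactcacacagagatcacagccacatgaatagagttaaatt
Pax5: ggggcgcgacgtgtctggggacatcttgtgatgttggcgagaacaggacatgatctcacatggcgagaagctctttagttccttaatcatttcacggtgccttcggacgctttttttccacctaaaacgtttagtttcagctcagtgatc
Fcer2a: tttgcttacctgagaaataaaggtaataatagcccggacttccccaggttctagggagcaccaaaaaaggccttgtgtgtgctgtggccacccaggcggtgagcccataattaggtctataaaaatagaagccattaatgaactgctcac
These windows lie at chr3:136326067-136326216 for Bank1, chr7:30879029-30879178 for Cd22, chr4:44710695-44710844 for Pax5 and chr8:3694175-3694324 for the first of 3 Fcer2a start sites. The Cd22 window lies inside the annotated gene, 30865402 to 30880342, so it precedes a RefSeq start site but not the whole gene. The Fcer2a window begins at the last annotated base of its gene, 3694175. The Bank1 window held 1 EBF match and 1 E-box match, apart from each other, and the Cd22 window held 1 EBF match. The Pax5 window and the first Fcer2a window held neither.

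In longer windows from 250 bases before to 50 bases after the start, 6 of the 9 genes were present in the RefSeq table, with 9 windows, and Cd79b, Ms4a1 and Blk were the 3 without one. The EBF motif was in 2 of these 9 windows, at -21 in Bank1 and -48 in Cd22, counted from the start site to the first base of the match, and in 13.7% of 32851 windows of all genes. The E-box was in 4 of the 9 windows, 1 each of Bank1, Cd79a, Cd22 and Fcer2a, and in 20.2% of all windows. Both windows of Ebf1 and the Pax5 window held neither motif, and the E-box of Fcer2a was in its second window. The relation of these motifs to the changes in expression was not tested. The octamer ATTTGCAT, found in 1.74% of all windows, and the PU.1 motif GAGGAAGT, found in 3.2%, were in none of the 9 windows. A match here is a run of letters, and binding was not measured.

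The libraries held 8873413 to 11277764 sense counts in genes. Uniquely mapped reads that the sense count assigned to no gene were 31.83% to 47.93% of those in genes, in no gene or ambiguous. Rnmt, the cap methyltransferase gene that was deleted, had 51.5, 58.7 and 57.9 CPM (counts after TMM scaling of library sizes) in control libraries 1 to 3, and 42.0, 37.5 and 26.6 CPM in Rnmt cKO libraries 1 to 3. It was lower in every Rnmt cKO library, with a log2 fold change of -0.67 (SE 0.20, edgeR exact test, Benjamini-Hochberg adjusted p = 0.00035), although these counts cover the whole gene and the deletion removes exon 3. Libraries of one group differed by more than sampling noise (chi-square per degree of freedom 3.79 to 25.4). The labels number the libraries without naming an animal, so p-values measure the spread between these samples.

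Transcripts of all 9 genes were detected in all 6 libraries, at 9 to 225 counts. Of the 9 genes, 5 (Cd79b, Ms4a1, Ebf1, Cd22 and Bank1) rose in Rnmt cKO libraries and 4 (Cd79a, Pax5, Blk and Fcer2a) did not pass the adjusted threshold of 0.05. In the same edgeR exact test, 8.0% of the 12336 genes tested were higher in Rnmt cKO libraries and 6.84% lower, and of the 2770 genes whose mean CPM lay in the range spanned by the 9 genes, 2.59 to 12.6, 9.06% were higher. None of the 9 was lower, and at an unadjusted p under 0.05, 7 were higher and 0 lower. The median log2 fold change was 0.62 over the 9 genes and 0.01 over all genes tested. The 3 Rnmt cKO values lay above the 3 control values for 6 of the 9 genes, against 16.6% of all genes tested.

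The count of 5 depended on which libraries were used. Without Rnmt cKO library 2 it was 0, with 3 genes higher at an unadjusted p under 0.05. It was 1 without control library 1, 3 without control library 2 and 3 without control library 3, 6 without Rnmt cKO library 1 and 4 without Rnmt cKO library 3. Of all genes tested, 643 were called higher without Rnmt cKO library 2 and 747 without control library 1, against 987 with all libraries. Each such fit also had fewer libraries, and the part of this in the lost calls was not tested. With edgeR's quasi-likelihood test and with DESeq2 the count was 3. Every one of the 9 genes had its highest value in Rnmt cKO library 2.

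Summed over the 9 genes, control libraries 1 to 3 held 53.0, 58.9 and 55.9 CPM and Rnmt cKO libraries 1 to 3 held 67.8, 106.3 and 84.0 CPM. The groups did not overlap, and the control sums lay close together while the Rnmt cKO sums were spread. The mean sum of controls was 55.9 ± 2.94 CPM and that of Rnmt cKO libraries 86.0 ± 19.3 CPM (SD, n = 3 each), a ratio of 1.54. Rnmt cKO library 2 had 1.57 times the sum of Rnmt cKO library 1, and for single genes this ratio ran from 1.13 to 2.24. As a share of all sense counts in genes, the 9 genes took 0.004837% to 0.005771% in control libraries and 0.007235% to 0.01139% in Rnmt cKO libraries.

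**Figure D1:**
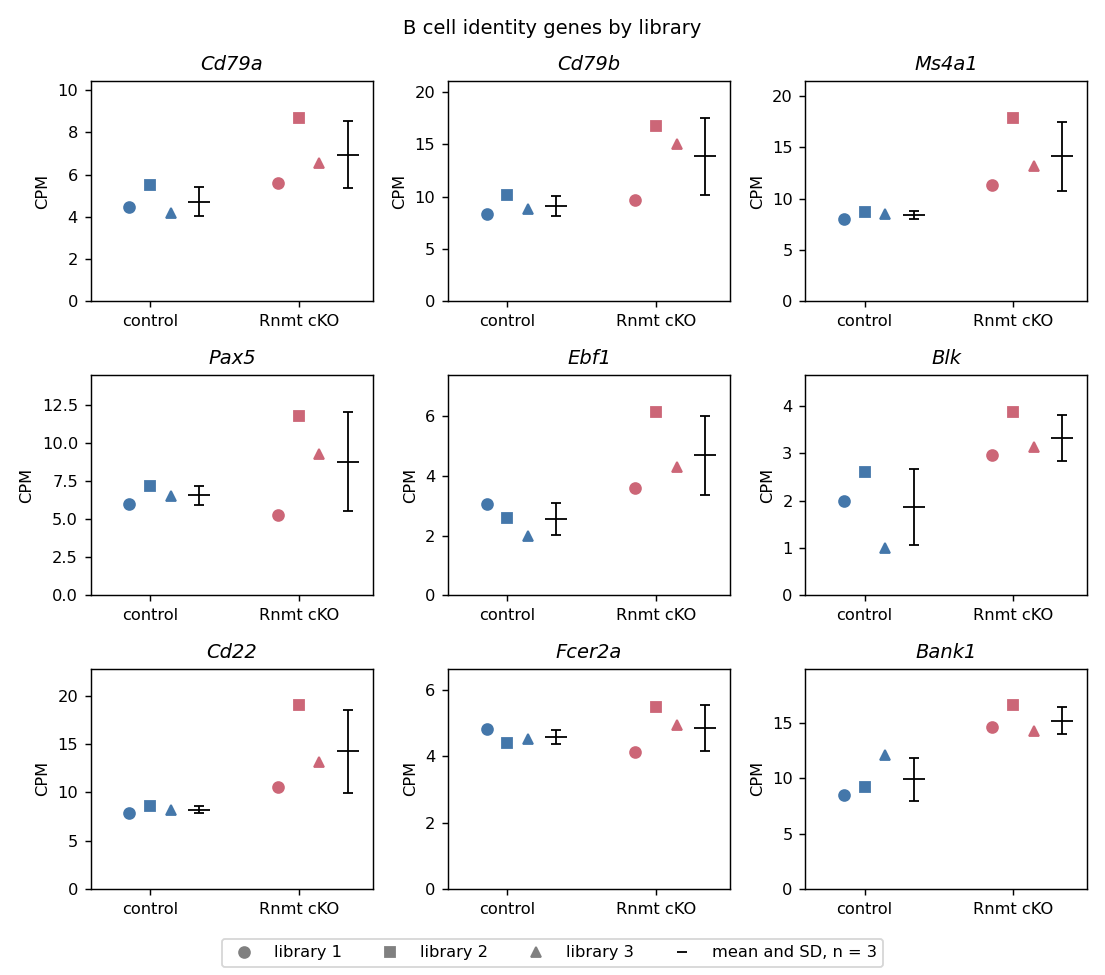
Level of each of the 9 B cell identity genes in CPM (vertical axes, each from 0) in the 3 control and 3 Rnmt cKO libraries, with one point per library and the mean and SD (n = 3) beside them. Rnmt cKO library 2 is the highest point in all 9 panels, and the groups overlap for Cd79b, Pax5 and Fcer2a.

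Per kilobase of exonic sequence, Cd79b was the most abundant of the 9, at 6.37 ± 0.66 RPKM in controls and 9.68 ± 2.57 RPKM in Rnmt cKO libraries (SD, n = 3, as for each RPKM here). In controls it was followed by Cd79a at 3.24 ± 0.47 RPKM, Bank1 at 3.04 ± 0.60 RPKM and Ms4a1 at 2.73 ± 0.12 RPKM, whose differences were within their spread. Fcer2a at 1.94 ± 0.09 RPKM and Cd22 at 1.68 ± 0.07 RPKM came next. Pax5 at 0.82 ± 0.07 RPKM and Blk at 0.80 ± 0.35 RPKM did not differ beyond their spread, and Ebf1 was lowest at 0.43 ± 0.09 RPKM. The order in Rnmt cKO libraries was the same except that Cd22, at 2.92 ± 0.88 RPKM, stood above Fcer2a, at 2.05 ± 0.29 RPKM, and Blk, at 1.43 ± 0.21 RPKM, stood above Pax5, at 1.10 ± 0.41 RPKM. The receptor chains and surface genes had higher levels per length than both transcription factor genes in either group.

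Cd79a (ENSMUSG00000003379, chromosome 7, 24897381 to 24902197, plus strand) and Cd79b (ENSMUSG00000040592, chromosome 11, 106311341 to 106314762, minus strand) encode the signalling chains of the B cell receptor. Cd79b was present at 8.35, 10.2 and 8.84 CPM in control libraries 1 to 3 and at 9.72, 16.8 and 15.1 CPM in Rnmt cKO libraries 1 to 3. Rnmt cKO library 1 lay within the range of the controls. Cd79b passed the threshold narrowly, with a log2 fold change of 0.61 (SE 0.25, edgeR exact test, adjusted p = 0.048), and it passed under 4 of 15 alternative settings. Cd79a had 4.47, 5.49 and 4.20 CPM in control libraries 1 to 3 and 5.60, 8.69 and 6.54 CPM in Rnmt cKO libraries 1 to 3. Its groups did not overlap, but Rnmt cKO library 1 was close to control library 2, and the log2 fold change of 0.56 (SE 0.21) did not pass the same test after adjustment (adjusted p = 0.13, unadjusted p = 0.026).

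Cd79a also carried reads on its antisense strand, which made up 47.2% of its counts over both strands. The antisense counts were 48, 55 and 65 in control libraries 1 to 3 and 55, 57 and 42 in Rnmt cKO libraries 1 to 3. After scaling they were 5.64, 5.49 and 7.18 CPM in controls and 5.81, 4.81 and 3.76 CPM in Rnmt cKO libraries, so that antisense and sense counts did not move together. Counted on either strand, Cd79a had a log2 fold change of 0.12 (edgeR exact test, adjusted p = 0.81). Fcer2a was the only other gene of the 9 with more than 3% antisense counts, at 19.5%.

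Per kilobase, the transcription factor genes were the least abundant of the 9 with Blk. Ebf1 (ENSMUSG00000057098, chromosome 11, 44617317 to 45008091, plus strand) was counted 26, 26 and 18 times in control libraries 1 to 3 and 34, 73 and 48 times in Rnmt cKO libraries 1 to 3. This gave 3.06, 2.60 and 1.99 CPM in controls and 3.59, 6.16 and 4.30 CPM in Rnmt cKO libraries, without overlap. Ebf1 had the highest log2 fold change of the 9 genes, at 0.89 (SE 0.28, edgeR exact test, adjusted p = 0.030). Its call held under 7 of 15 alternative settings, and without Rnmt cKO library 2 the log2 fold change was 0.63 (adjusted p = 0.29).

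Pax5 (ENSMUSG00000014030, chromosome 4, 44524757 to 44710487, minus strand) was present at 6.0, 7.19 and 6.52 CPM in control libraries 1 to 3 and at 5.28, 11.8 and 9.32 CPM in Rnmt cKO libraries 1 to 3. Rnmt cKO library 1 was below every control and the other Rnmt cKO libraries were above every control. The log2 fold change of 0.43 (SE 0.34) did not pass the edgeR exact test (adjusted p = 0.36). Without Rnmt cKO library 1 it was 0.68 and passed (adjusted p = 0.036), and without Rnmt cKO library 2 it was 0.16 (adjusted p = 0.86).

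Among the surface proteins, Ms4a1 and Cd22 rose by similar amounts. Ms4a1 (ENSMUSG00000024673, chromosome 19, 11249675 to 11266241, minus strand) had 7.99, 8.68 and 8.51 CPM in control libraries 1 to 3 and 11.3, 17.9 and 13.2 CPM in Rnmt cKO libraries 1 to 3. All Rnmt cKO values were above all control values, and the controls differed from each other by less than 1 CPM. The log2 fold change was 0.75 (SE 0.20, edgeR exact test, adjusted p = 0.0041), and the call held under 13 of 15 alternative settings, more than for any other of the 9 genes. Cd22 (ENSMUSG00000030577, chromosome 7, 30865402 to 30880342, minus strand) had 7.88, 8.58 and 8.17 CPM in control libraries 1 to 3 and 10.6, 19.0 and 13.2 CPM in Rnmt cKO libraries 1 to 3. Its groups were likewise separate, with a log2 fold change of 0.80 (SE 0.25, edgeR exact test, adjusted p = 0.0066). Without Rnmt cKO library 2 the log2 fold changes were 0.54 for Ms4a1 (adjusted p = 0.094) and 0.53 for Cd22 (adjusted p = 0.12).

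Fcer2a (ENSMUSG00000005540, chromosome 8, 3681737 to 3694175, minus strand) had 4.82, 4.39 and 4.53 CPM in control libraries 1 to 3 and 4.12, 5.48 and 4.93 CPM in Rnmt cKO libraries 1 to 3. Its Rnmt cKO values lay on both sides of the controls. The log2 fold change was 0.09 (SE 0.12, edgeR exact test, adjusted p = 0.91), the smallest of the 9, and it passed under none of the 15 alternative settings. The difference between Fcer2a and the genes that rose was not tested.

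The signalling proteins inside the membrane were represented by Bank1 and Blk. Bank1 (ENSMUSG00000037922, chromosome 3, 136053363 to 136326066, minus strand) had 8.47, 9.18 and 12.2 CPM in control libraries 1 to 3 and 14.7, 16.6 and 14.3 CPM in Rnmt cKO libraries 1 to 3. Here the spread was among the controls, and Rnmt cKO library 2 exceeded the mean of the other Rnmt cKO libraries by a factor of 1.15, the lowest of the 9 genes. The log2 fold change was 0.62 (SE 0.17, edgeR exact test, adjusted p = 0.0082), and without Rnmt cKO library 2 it was 0.54 (adjusted p = 0.096). Blk (ENSMUSG00000014453, chromosome 14, 63372836 to 63417037, minus strand) was counted 17, 26 and 9 times in control libraries 1 to 3 and 28, 46 and 35 times in Rnmt cKO libraries 1 to 3. At 2.00, 2.60 and 0.99 CPM in controls and 2.96, 3.88 and 3.14 CPM in Rnmt cKO libraries the groups did not overlap, and 1 control library was below the 1 CPM that the filter asks for. Its log2 fold change of 0.83 had the largest SE of the 9 genes, 0.38, and did not pass the edgeR exact test (adjusted p = 0.090).

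**Figure D2:**
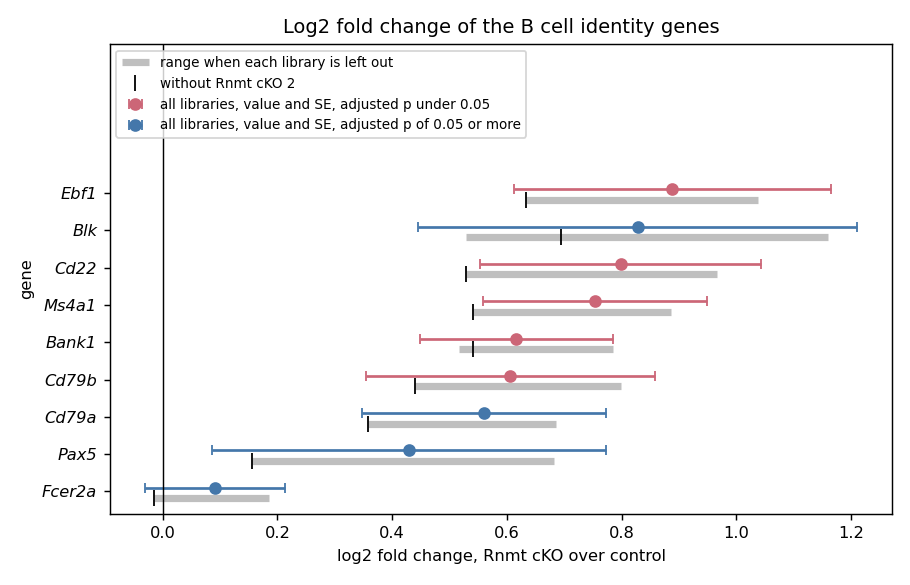
Log2 fold change of each of the 9 genes, Rnmt cKO over control (horizontal axis), as points with SE, beside grey bars that span the values obtained when each library was left out in turn and a black tick for the value without Rnmt cKO library 2. Values with all libraries run from 0.09 for Fcer2a to 0.89 for Ebf1, and the tick is at the left end of the grey bar for 7 of the 9 genes.

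The makeup of the 9-gene counts was compared as each gene's share of their sum, which was 451 to 590 counts in control libraries and 642 to 1260 in Rnmt cKO libraries. Fcer2a took 9.09%, 7.46% and 8.10% in control libraries 1 to 3 and 6.08%, 5.16% and 5.87% in Rnmt cKO libraries 1 to 3. Its share was thus lower in every Rnmt cKO library, while its CPM was not. The 95% Wilson intervals, which cover counting error only, overlapped between the groups for every pair of libraries except control library 1, at 6.77% to 12.1%, and Rnmt cKO library 2, at 4.07% to 6.52%. Ms4a1 took 15.0% ± 0.24 in controls and 16.4% ± 0.62 in Rnmt cKO libraries (SD, n = 3), and Cd22 took 14.7% ± 0.15 and 16.4% ± 1.29 (SD, n = 3), both without overlap of the 3 libraries of each group. Pax5 took 7.79% in Rnmt cKO library 1 and 11.1% in both other Rnmt cKO libraries, against 11.3% to 12.2% in controls. The shares of Cd79a, Cd79b, Ebf1, Blk and Bank1 overlapped between the groups. No test was made on the shares, which sum to a fixed total and are not independent of each other.

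**Figure D3:**
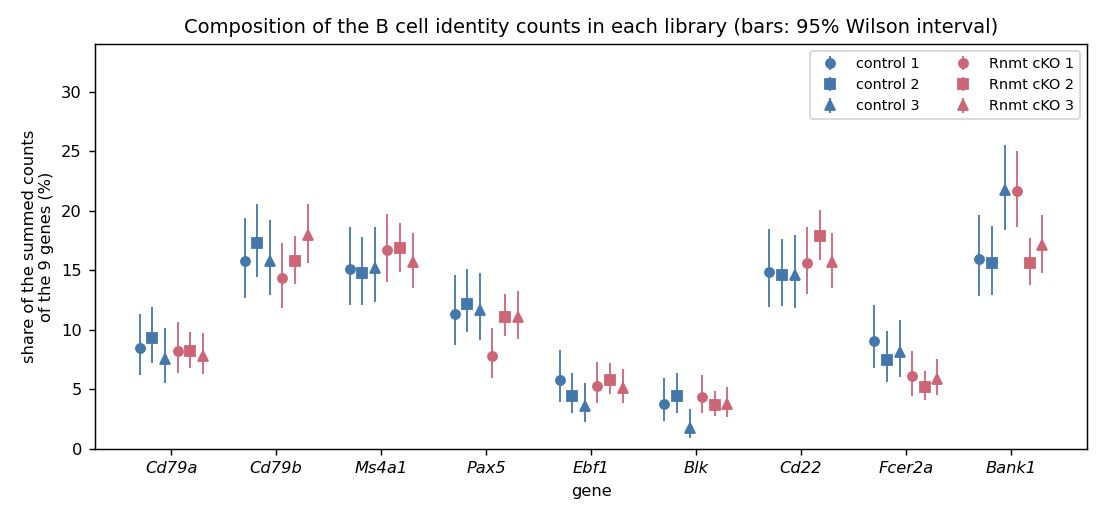
Share of each gene in the summed counts of the 9 genes, in percent (vertical axis), for each control and Rnmt cKO library, with 95% Wilson intervals as bars. Fcer2a lies at 7.46% to 9.09% in controls and 5.16% to 6.08% in Rnmt cKO libraries, while the shares of Cd79a overlap.

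Other genes of mature B cells were read from lists. Of 16 genes of other B cell surface proteins, 15 were tested, 3 rose and none fell in the edgeR exact test (7 higher and 0 lower at an unadjusted p under 0.05), and the median of their log2 fold changes was 0.58. Their summed level was 88.3 to 95.2 CPM in controls and 89.8 to 120.1 CPM in Rnmt cKO libraries, which overlap. Tnfrsf13b and Cd72, named after their values were seen, made up much of these sums. Tnfrsf13b had 29.8 to 36.6 CPM in controls and 25.7 to 30.7 CPM in Rnmt cKO libraries, and Cd72 16.2 to 20.4 CPM and 14.8 to 17.3 CPM. The other 13 tested genes had log2 fold changes above 0. Cr2, a complement receptor of B cells, had 4.70, 6.19 and 4.64 CPM in control libraries 1 to 3 and 8.88, 11.8 and 6.45 CPM in Rnmt cKO libraries 1 to 3. Its log2 fold change was 0.80 (SE 0.28, edgeR exact test, adjusted p = 0.023), or 0.30 counted on either strand (adjusted p = 0.53). Cd180, a Toll-like receptor homologue, was at 0.59 to 0.80 CPM in controls and 1.79 to 2.36 CPM in Rnmt cKO libraries. It entered the test only through the Rnmt cKO libraries, since every control was below 1 CPM, so its place among the 3 is not evidence of a rise. Fcgr2b and Ly86, named after their values were seen, had 0.44 to 1.06 CPM and 0.44 to 1.30 CPM in controls. They also met the filter only through the Rnmt cKO libraries. The places of Cd180, Fcgr2b and Ly86 among the 7, and among the 13 above 0, are therefore not evidence of a rise. With more than 1 CPM asked in all libraries, the median of the list was 0.38. Cr2 was also highest in Rnmt cKO library 2, and without that library the number that rose was 0, with 1 higher at an unadjusted p under 0.05 and Cd180 no longer tested. The number was 1 without control library 1, control library 3 or Rnmt cKO library 1.

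All 12 genes of B cell receptor signalling were tested, and 4 rose and none fell in the edgeR exact test (6 higher and 1 lower at an unadjusted p under 0.05). The median of their log2 fold changes was 0.37. Those that rose were Plcg2, a phospholipase that relays receptor signals, with a log2 fold change of 1.04 (edgeR exact test, adjusted p = 0.0029), the kinase genes Lyn, with 0.91 (adjusted p = 0.028), and Syk, with 0.77 (adjusted p = 0.033), and Vav2, a guanine nucleotide exchange factor, with 0.49 (adjusted p = 0.0040). Lyn overlapped between the groups and the other 3 did not. Without Rnmt cKO library 2 none of these 4 passed, and 3 genes of the list were higher at an unadjusted p under 0.05. The number was 1 without control library 1 and 2 without control library 3. Of 10 B lineage transcription factor genes, 9 were tested. Irf4, which also acts in activated T cells, rose with a log2 fold change of 0.45 (edgeR exact test, adjusted p = 0.0059), and Pou2f2, which encodes the octamer-binding protein OCT2, fell by 0.72 on the log2 scale (adjusted p = 0.0023). Pou2f2 was 16.1 to 19.2 CPM in controls and 8.78 to 13.6 CPM in Rnmt cKO libraries. Irf4 did not pass without control library 2 or Rnmt cKO library 2, and Pou2f2 passed whichever library was left out.

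Immunoglobulin and MHC class II genes moved in both directions. Igkc, the kappa light chain constant gene, had 12.8, 13.4 and 11.3 CPM in control libraries 1 to 3 and 47.0, 166.7 and 71.4 CPM in Rnmt cKO libraries 1 to 3, a log2 fold change of 2.93 (SE 0.54, edgeR exact test, adjusted p = 8.39e-13). Its Rnmt cKO libraries stood in the same order as for the sum of the 9 genes, and its fold change was larger than that of any of the 9. Ighm, the mu heavy chain constant gene, fell by 0.68 on the log2 scale (SE 0.11, adjusted p = 5.21e-08), from 283.6 to 346.5 CPM in controls to 180.7 to 214.6 CPM in Rnmt cKO libraries. Of 6 immunoglobulin genes, all tested, Igkc and Iglc1 were called higher and Ighm lower. Iglc1 did not pass without control library 1, control library 3 or Rnmt cKO library 2, and its reads may be shared with near-identical lambda genes. It had 0.94, 1.80 and 0.66 CPM in control libraries 1 to 3 and 2.3 to 3.3 CPM in Rnmt cKO libraries. Iglc1 thus met the filter only through the Rnmt cKO libraries, and its call is not evidence of a rise. Of 10 MHC class II genes, 5 rose (H2-Aa, Cd74, Ciita, H2-DMb2 and H2-Eb1) and H2-Ob fell, and without control library 3 or Rnmt cKO library 2 the number that rose was 2. Iglc1, Ciita, H2-DMb2, H2-Eb1 and H2-Ob were named after their values were seen. H2-Aa, an MHC class II chain, rose by 0.76 on the log2 scale (SE 0.26, adjusted p = 0.0019), and Cd74, its invariant chain partner, by 0.62 (SE 0.26, adjusted p = 0.0077). Without Rnmt cKO library 2, H2-Aa, Igkc and Ighm still passed, and Cd74 did not, at 0.45 (adjusted p = 0.11).

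**Figure D4:**
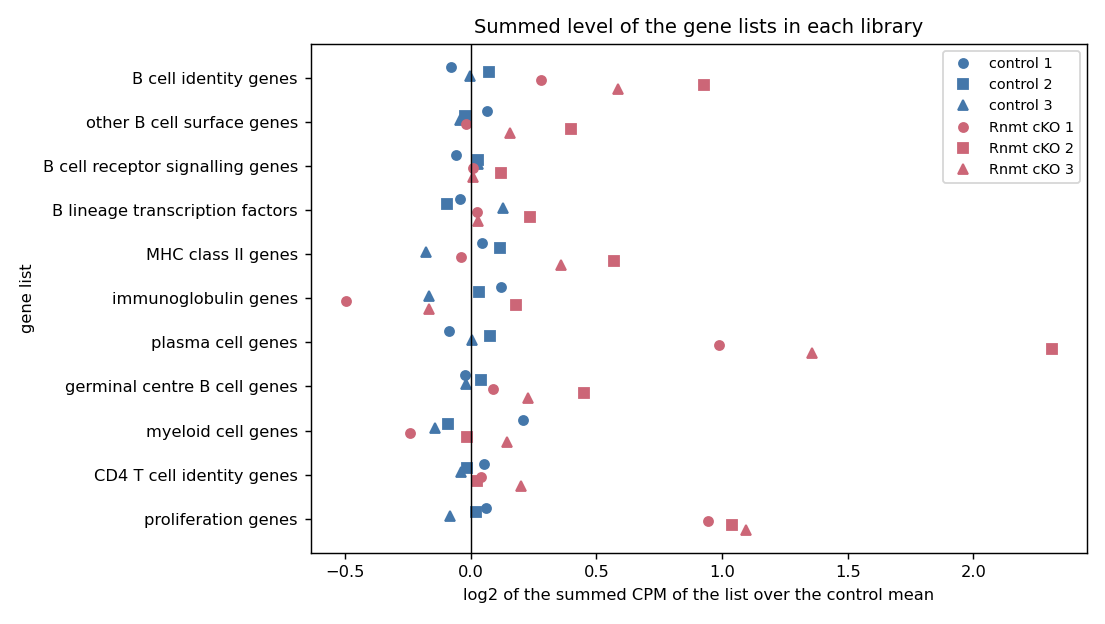
Summed CPM of each gene list in each library, as the log2 ratio to the mean of the 3 controls (horizontal axis), with one point per library. The Rnmt cKO points of the B cell identity genes, whose sums were 67.8 to 106.3 CPM, lie above all controls (53.0 to 58.9 CPM), while those of the other B cell surface genes overlap the controls. Sums follow the most abundant genes of a list, such as Tnfrsf13b for the other B cell surface genes and Ctss for the myeloid cell genes.

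Genes of other cell types were read in the same libraries. Of 9 plasma cell genes, 5 were tested and 4 rose in the edgeR exact test (Igha, Ighg1, Jchain and Xbp1), while Prdm1 had 5.85 to 7.52 CPM in controls and 3.85 to 5.18 CPM in Rnmt cKO libraries (log2 fold change -0.58, adjusted p = 0.074). These 5 were named after their values were seen. Xbp1, at an adjusted p of 0.046, did not pass when any 1 of the 6 libraries was left out, which left 3, and the count was also 3 with the quasi-likelihood test and DESeq2. With more than 1 CPM asked in all libraries the count was 2, and the median log2 fold change of the list was 0.31, against 3.40 in the main fit. Ighg1, at 0.33 to 2.00 CPM in controls, and Jchain, at 0.998 to 1.88 CPM, could not have met the filter of the main fit without the Rnmt cKO libraries. The plasma cell sum was 53.1 to 59.5 CPM in controls and 112 to 280.5 CPM in Rnmt cKO libraries, highest in library 2. Of 7 germinal centre genes, 4 were tested and 1 rose (Mybl1, named after its value was seen), with sums of 56.6 to 59.1 CPM and 61.2 to 78.5 CPM. Of 11 myeloid genes, 6 were tested, and the sums overlapped at 194.6 to 248.1 CPM and 181.9 to 237.5 CPM. These sums mostly follow Ctss, named after its values were seen, at 186.2 to 241.4 CPM in controls and 165.9 to 212.2 CPM in Rnmt cKO libraries. They do not show how the less abundant myeloid genes moved. The other 5 tested genes had log2 fold changes above 0, but these include S100a8 and S100a9, whose entry to the test is described below. Lyz2, S100a8 and S100a9 were called higher. Without Rnmt cKO library 1 or Rnmt cKO library 2 the number was 1, and S100a8 and S100a9 were then no longer tested. S100a8 and S100a9, named after their values were seen, were below 1 CPM in every control and entered the test only through the Rnmt cKO libraries. There they had 1.80 to 6.63 CPM and 2.54 to 8.44 CPM, so neither their calls nor their signs are evidence of a rise. Lyz2, the lysozyme gene of myeloid cells, had 3.17, 2.00 and 3.09 CPM in control libraries 1 to 3 and 5.18, 13.8 and 5.92 CPM in Rnmt cKO libraries 1 to 3 (log2 fold change 1.60, SE 0.48, adjusted p = 0.0012). None of 8 dendritic cell genes was tested, with sums of 0.88 to 2.12 CPM in controls and 2.24 to 3.88 CPM in Rnmt cKO libraries and Cd209a at 0 in all libraries. The part of these cell types in the rise of the 9 genes was not tested.

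The T cell lists gave the level of the sorted cells. The 13 CD4 T cell identity genes summed to 6772 to 7218 CPM in controls and 7073 to 7993 CPM in Rnmt cKO libraries, and 2 of them fell (Cd3g and Il7r, named after their values were seen). Without control library 1, Rnmt cKO library 1 or Rnmt cKO library 2 only 1 fell. Cd3e, a chain of the T cell receptor complex, had 137.1 to 162.6 CPM in controls and 137.3 to 155.1 CPM in Rnmt cKO libraries (log2 fold change -0.06, SE 0.09, adjusted p = 0.78). Cd4 had 657.5 to 688 CPM and 823.3 to 909.1 CPM (log2 fold change 0.35, SE 0.05, adjusted p = 0.0049). Of 12 proliferation genes 10 rose, with sums of 279.7 to 308.8 CPM in controls and 570.2 to 632.2 CPM in Rnmt cKO libraries, and the part of this change in the result for the 9 genes was not tested. The sums of 2 CD8 genes were 21.7 to 23.3 CPM in controls and 13.5 to 17.3 CPM in Rnmt cKO libraries. Those of 6 erythroid genes were 4.86 to 7.52 CPM and 1.16 to 1.35 CPM, and those of 6 natural killer cell genes 11.7 to 22.0 CPM and 12.9 to 19.8 CPM. The natural killer sums cover opposite changes. Of these 6 genes 2 were tested, and in the edgeR exact test Eomes rose (log2 fold change 1.23) and Klrd1 fell (log2 fold change -1.34). Both were named after their values were seen.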

How the data were processed

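RNA from 6 libraries (3 control, 3 Rnmt cKO) had been sequenced as paired-end reads and aligned to mm10 with STAR 2.5.2b and the GENCODE vM12 basic annotation. The authors deposited raw STAR counts of uniquely mapped fragments per gene for each strand. Lines that name no gene were left out. The sense column was used. It was identified by dividing it by 1 constant per library, which returned the signal values of the edgeR table that the authors deposited, for 100% of its 11221 genes. That table's own fold changes, mean abundances and p-values were not used. It lists 8 of the 9 genes, without Blk. All 6 count columns were matched to labels, with 0 unmatched. Symbols came from that table for the genes it lists and otherwise from GENCODE vM21, on the same build, together covering 46510 identifiers. Coordinates and exonic lengths came from GENCODE vM21.

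Genes above 1 CPM in at least 3 libraries were tested (12336, the 9 genes included) with the edgeR 4.0.16 exact test (R 4.3.3) on tagwise dispersions and TMM-scaled counts, two-sided, with Benjamini-Hochberg adjustment over all genes tested and a threshold of 0.05. Log2 fold changes set Rnmt cKO libraries over controls. Their SE came from log2 CPM with a prior count of 2. RPKM is CPM per kilobase of exonic length. Wilson intervals used scipy 1.17.1. Alternatives were the quasi-likelihood test, DESeq2 1.42.0, 2 other scalings, 2 other filters, counts of either strand, a replicate block, a covariate for the share of reads in no gene, and leaving out each library. The code was tested on simulated data. Promoter windows came from RefSeq tables on GRCm38.p6.

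The 9 genes and all lists were chosen with earlier results of these data known. The genes named are the 9, Rnmt, the markers Cr2, Cd74, H2-Aa, Ighm, Igkc, Lyz2, Cd3e and Cd4, and the 5 with the largest absolute log2 fold change past the threshold in each of the lists of B cell surface, receptor signalling and transcription factor genes, where fewer than 5 passed in each. Of the genes that meet this rule, 1 is not reported here. Others are named after their values were seen.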

Additional observations from a re-analysis of the deposited data

How the results depend on the processing

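The 9 genes had 9 to 225 counts per library, and the size of change that could be detected at this depth was not tested. The number of B cell identity genes that rose, 5, was 3 with the quasi-likelihood test, 3 with DESeq2, 3 with no filter on low counts, 4 with DESeq2 size factors, 4 on counts of either strand, 5 with the no-gene share as a covariate, 5 with more than 1 CPM asked in all libraries (where Blk was not tested) and 7 with library size only, and ran from 0 to 6 when each library was left out. Scaling by library size only moved the median over all genes tested from 0.01 to 0.14 on the log2 scale, and the median of the 9 genes to 0.74. Over all genes tested, 987 were higher and 844 lower, against 1938 and 535 with library size only, 1696 and 1467 with the covariate, and 643 to 1221 and 547 to 1285 when each library was left out. Over 15 alternatives, the median log2 fold change of the 9 genes ran from 0.53 without Rnmt cKO library 2 to 0.80 without Rnmt cKO library 1. Of 134 single-gene results under alternatives, 133 were above 0, and Fcer2a without Rnmt cKO library 2 was -0.01 with no call. The causes of these differences were not tested.

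The labels give both groups replicate numbers 1 to 3. Same-numbered libraries did not deviate together (correlations -0.21, -0.02 and -0.35), and 0 of 6 libraries correlated best with their own number, so the numbers do not show a pairing. With the replicate number as a block in the quasi-likelihood test, 431 genes were higher and 276 lower, and 0 of the 9 genes passed, with 7 higher and 0 lower at an unadjusted p under 0.05.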
